A study of Mus musculus with 10 samples.

Results

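A set of 9 genes that mark B lymphocytes and plasma cells, leaving aside the immunoglobulin segments, were followed in the aorta of young and old mice. They were found by symbol in the deposited count table, which held 9 of the 9 names among 55453 gene symbols. Each of 10 male C57BL/6 mice gave 1 aorta and 1 bulk RNA library, and the labels put 5 of them at 14.5 weeks of age (young) and 5 at 92.5 weeks (old). The mice of both groups came from the same vendor, were kept on standard chow and killed at the same time, carried no transgene or treatment, and were perfused with saline before the fat around the vessel was removed. The whole vessel wall was extracted, so each value is an average over smooth muscle, endothelium, adventitia and any leukocyte in it, and only males were studied.

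B cells recognise antigen through a membrane immunoglobulin that signals through a pair of partner chains, CD79a and CD79b. The signal passes to kinases of the Src family and to Syk and Btk, is scaled by co-receptors such as CD21, and is damped by inhibitory receptors such as CD22. In arteries, B cells are known mainly from the adventitia and the surrounding fat, where they can gather in small lymphoid clusters, while the media holds few of them. In bulk RNA, fewer B cells and less RNA per cell cannot be told apart.

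The promoters of *Cd79a*, *Cr2* and *Cd22* are shown because these genes carry the receptor chain, a co-receptor and the inhibitory receptor described next. The RefSeq promoter table (GRCm38.p6) matched 5 of the 9 genes, and the stretch shown is the longest within the 250 bases before the start that no exon of GENCODE M21 covers. Capitals mark matches on either strand to CAGGTG, the E box read by the E2A proteins, or, in *Cd22*, to the EBF1 palindrome, read by early B cell factor 1. *Cd79a* is given on the plus strand, chr7:24897247-24897380, *Cr2* on the minus strand, chr1:195176720-195176969, and *Cd22* on the minus strand, chr7:30879029-30879176. The *Cd22* stretch lies before the RefSeq start but inside the GENCODE span of the gene (30865402 to 30880342).
Cd79a: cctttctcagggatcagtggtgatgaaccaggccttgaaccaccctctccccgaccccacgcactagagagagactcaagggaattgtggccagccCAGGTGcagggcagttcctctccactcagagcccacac
Cr2: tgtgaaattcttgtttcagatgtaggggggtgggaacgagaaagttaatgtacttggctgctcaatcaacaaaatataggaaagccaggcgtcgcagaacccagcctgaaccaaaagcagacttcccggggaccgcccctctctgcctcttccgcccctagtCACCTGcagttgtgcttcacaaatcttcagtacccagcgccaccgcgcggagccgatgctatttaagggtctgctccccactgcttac
Cd22: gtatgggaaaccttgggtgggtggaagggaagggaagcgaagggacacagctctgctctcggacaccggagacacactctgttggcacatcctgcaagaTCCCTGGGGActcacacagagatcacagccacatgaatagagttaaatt
Within the 250 bases before the start, the E box letters stood in 3 of the 5 matched promoters (*Cd79a*, *Cr2* and *Cd22*) and in 17.2% of the 32851 promoters of the table. The EBF1 palindrome stood in the *Cd22* promoter and in 0.779% of all promoters, AGGAAGT, an Ets core, in the *Cd79a* promoter and in 7.69% of all, and ATGCAAAT, the octamer, in none of the 5 and in 1.6% of all. The E box of *Cd22* and the Ets core of *Cd79a* lie outside the stretches shown. These matches describe the letters of each window and no binding was measured.

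The B cell genes were rare in the aorta, with 1169 counts for all 9 genes over all 10 libraries, against 19640401 to 22886153 counts on genes per library. Levels of single genes are given as normalized counts, which are counts divided by the size factor of each library, with mean ± SD over 5 mice. Summed over the 9 genes, the young aortae had 23.1 to 135 normalized counts and the old aortae had 52.0 to 508. Old replicate 3 stood apart. It held 63.6% of the counts of the 9 genes in the old group, and its sum was 7.61 times the median of the other 4 old aortae. Without it the ratio of the group means, old over young, went from 2.63 to 1.27. Group comparisons of the 9 genes that rest on old replicate 3 are therefore given with and without it. In the young group, young replicate 1 had the highest value for each of the 9 genes, and its sum was 3.79 times the median of the other 4 young aortae.

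**Figure D1:**
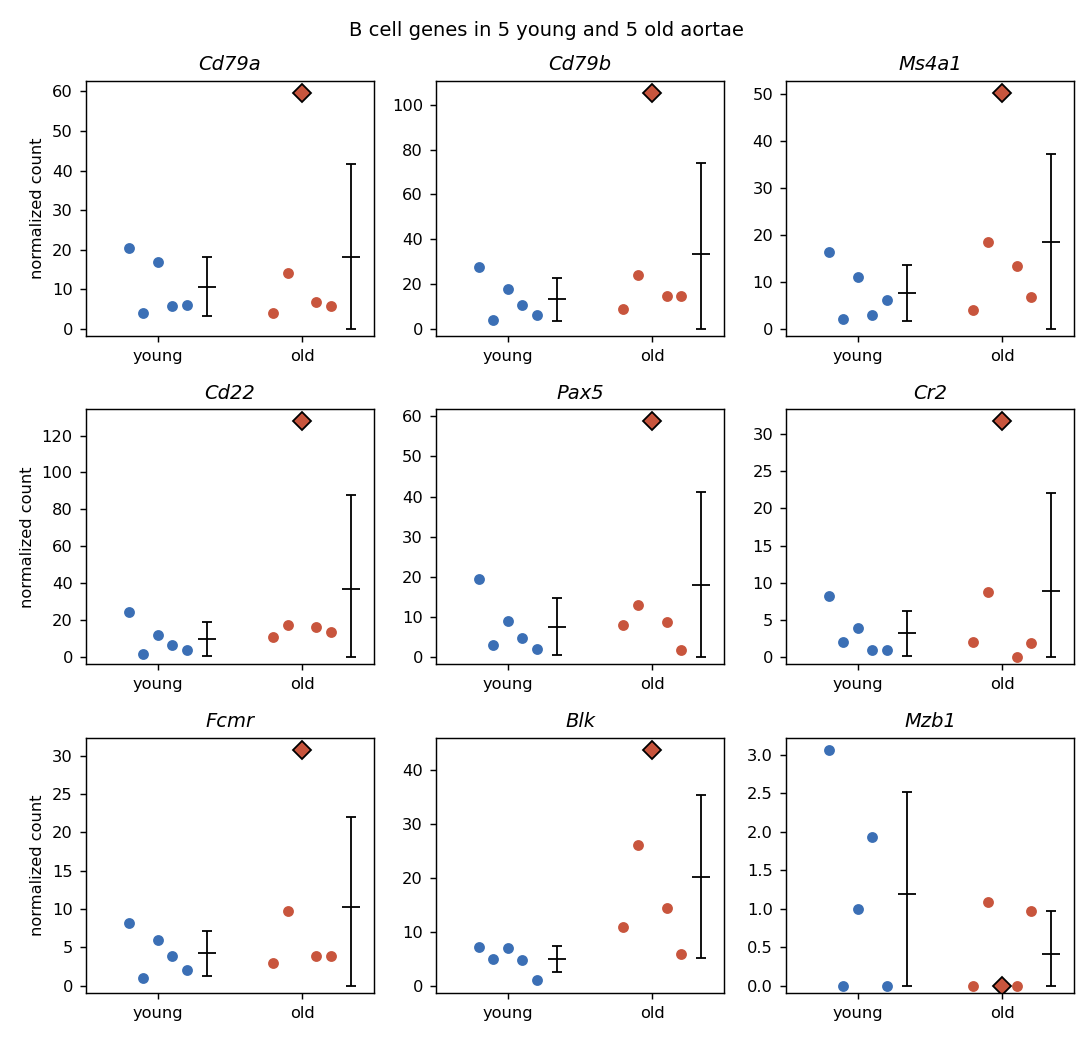
Normalized counts (vertical axis, linear, own scale per gene) of the 9 B cell genes in 5 young and 5 old aortae, with 1 point per mouse, the mean as a dash and the SD as bars whose lower arm ends at 0. The diamond is old replicate 3, the highest library for 8 of the 9 genes, while the other old aortae lie within or near the range of the young ones except for Blk.

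*Cd79a* (chromosome 7, 24897381 to 24902197) and *Cd79b* (chromosome 11, 106311341 to 106314762) encode the signalling chains of the B cell receptor. *Cd79a* had 20.4, 4.03, 16.9, 5.79 and 6.15 normalized counts in young replicates 1 to 5, and 4.00, 14.2, 59.6, 6.75 and 5.83 in old replicates 1 to 5. A single old aorta lay above the highest young value, and the others overlapped with the young group. The young mean was 10.7 ± 7.47 and the old mean 18.1 ± 23.6 (SD, n = 5 each, exact two-sided permutation, p = 0.786, unadjusted). Without old replicate 3 the old mean was 7.69 ± 4.47, and the ratio to young turned from 1.69 to 0.720 (exact permutation, p = 0.444, unadjusted). *Cd79b* had 27.6, 4.03, 17.9, 10.6 and 6.15 normalized counts in the young and 8.99, 24.0, 105, 14.5 and 14.6 in the old aortae. The old aortae other than replicate 3 lay inside the young range, and the group means were 13.3 ± 9.62 and 33.5 ± 40.5 (SD, n = 5, exact permutation, p = 0.341, unadjusted). The ratio of 2.52 became 1.17 without old replicate 3.

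*Ms4a1* (chromosome 19, 11249675 to 11266241), which encodes CD20, a surface protein of mature B cells, had 16.4, 2.01, 11.0, 2.90 and 6.15 normalized counts in young replicates 1 to 5. In old replicates 1 to 5 it had 4.00, 18.5, 50.3, 13.5 and 6.81. Old replicates 2 and 3 exceeded every young aorta, and the other 3 did not. The ratio of the means was 2.43, or 1.39 without old replicate 3. *Cd22* (chromosome 7, 30865402 to 30880342), an inhibitory lectin of the B cell receptor complex, had 24.5, 2.01, 12.0, 6.76 and 4.10 normalized counts in the young and 11.0, 17.4, 128, 16.4 and 13.6 in the old aortae. The other 4 old aortae were close together, with a mean of 14.6 ± 2.90, and young replicate 1 lay above them. The ratio of the means was 3.77, or 1.48 without old replicate 3. An overlapping gene, *Gm29439*, covers 9.50% of the exonic sequence of *Cd22*, so that reads from it could be counted for either.

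*Pax5* (chromosome 4, 44524757 to 44710487), the transcription factor that holds cells in the B lineage, ranged from 2.05 to 19.4 normalized counts in young and from 1.94 to 58.7 in old aortae. The genes *5730488B01Rik* and *Gm12462* cover 8.60% of its exonic sequence. *Cr2* (chromosome 1, 195136811 to 195176716), which encodes the complement receptors CD21 and CD35 of B cells and follicular dendritic cells, summed to 16 counts over the young and 46 over the old libraries, with 34 of the latter in old replicate 3. It had no count in old replicate 4, which allows up to 2.89 normalized counts at a limit of 3 counts. *Fcmr* (chromosome 1, 130865669 to 130880791), the receptor for IgM, ranged from 1.01 to 8.18 in young and from 3.00 to 30.8 normalized counts in old aortae. For these 3 genes the old mean without old replicate 3 was 1.03, 0.979 and 1.22 times the young mean, in the same order.

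*Blk* (chromosome 14, 63372836 to 63417037), a Src family kinase of the B lineage that is also known from some T cells, overlapped least between the groups. It had 7.16, 5.03, 6.98, 4.83 and 1.02 normalized counts in young replicates 1 to 5, and 11.0, 26.2, 43.8, 14.5 and 5.83 in old replicates 1 to 5. In 4 of the 5 old aortae the value exceeded the highest young one. The means were 5.00 ± 2.47 in young and 20.2 ± 15.1 in old (SD, n = 5 each), a ratio of 4.05 (exact permutation, p = 0.0238, unadjusted over 9 genes). Without old replicate 3 the ratio was 2.87 (exact permutation, p = 0.0476, unadjusted, where the smallest p that 5 against 4 can give is 0.0159).

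*Mzb1* (chromosome 18, 35647267 to 35649367), a chaperone of the endoplasmic reticulum in plasma cells and marginal zone B cells, was almost absent. Its counts summed to 6 over the young libraries and to 2 over the old ones, and 5 of the 10 libraries had none. The ratio of old over young was 0.329, with an exact 95% counting interval of 0.0324 to 1.84, so that no difference was detectable at this depth. *SPATA24* overlaps 57.2% of its exonic sequence, and 53.5% of its 50-base windows occur in transcripts of that gene, which makes its count uncertain. Old replicate 3, the highest library for the other 8 genes, had none of its counts.

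In edgeR's quasi-likelihood test over the whole table, with Benjamini-Hochberg adjustment and a threshold of 0.05, 3 of the 9 genes passed the low-count filter and 0 of them were called, with 1 at an unadjusted p below 0.05. Over all 14614 genes tested, 11.5% were called and 6.48% were called higher in old aortae. The log2 fold change, old over young, was 1.93 for *Cd22* (SE 0.86, edgeR adjusted p = 0.182), 1.35 for *Cd79b* (SE 0.74, edgeR adjusted p = 0.281) and 1.29 for *Ms4a1* (SE 0.70, edgeR adjusted p = 0.267). Without old replicate 3 the same fit gave 0.57, 0.22 and 0.47 for them. The other 6 genes were tested in edgeR without the filter, which called 1 of the 9, *Blk*, against 5.72% of 28011 genes (3.4% higher, 2.32% lower). Its log2 fold change was 1.99 (SE 0.51, edgeR adjusted p = 0.0198), and DESeq2, which called 13.6% of the genes with an adjusted p (7.24% higher, 6.33% lower), gave an adjusted p of 0.00863 for it and called no other member. DESeq2 gave no p for *Cd22*. Without old replicate 3 the log2 fold change of *Blk* was 1.49 and was no longer called (SE 0.48, edgeR adjusted p = 0.0615), in a fit that called 5.16% of genes (3.07% higher, 2.1% lower). With 1 mouse left out in turn, the call was also lost without young replicate 2 (log2 fold change 1.99, edgeR adjusted p = 0.0604) and young replicate 4 (log2 fold change 1.98, edgeR adjusted p = 0.0663), where the fold hardly moved.

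**Figure D2:**
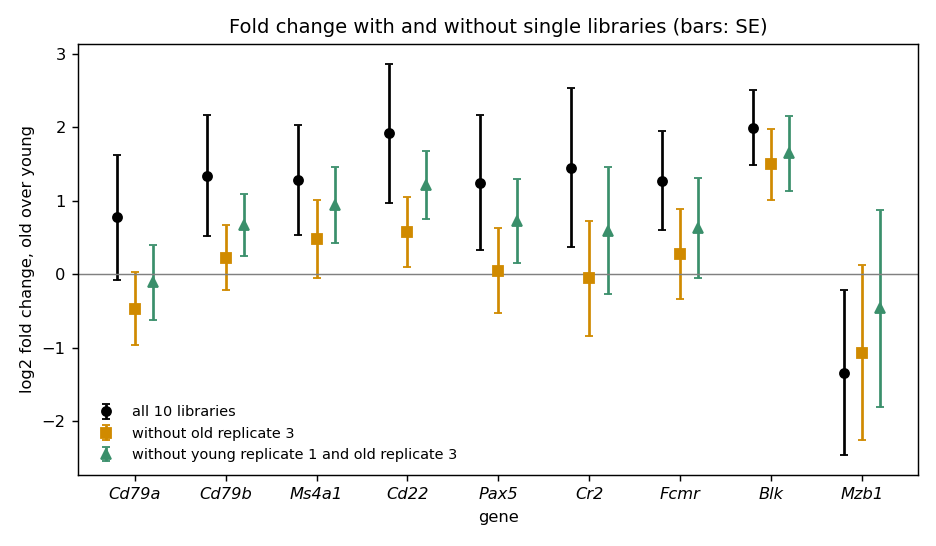
Log2 fold change, old over young (vertical axis), of the 9 genes from edgeR without the low-count filter, with SE as bars, for all 10 libraries (circles), without old replicate 3 (squares), and without young replicate 1 and old replicate 3 (triangles). Without old replicate 3, Cd79a and Cr2 turn below 0 and Pax5 sits at 0.046, while Blk stays at 1.49.

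Of the remaining genes, *Cd79a* had a log2 fold change of 0.77 (SE 0.85, edgeR without the filter, adjusted p = 0.644), and it was -0.47 (SE 0.49) without old replicate 3. *Cr2* went from 1.44 (SE 1.08) to -0.055 (SE 0.78), and *Pax5* from 1.24 (SE 0.92) to 0.046 (SE 0.58). *Fcmr* went from 1.27 (SE 0.67) to 0.27 (SE 0.61). None of these 4 genes was called in either fit. When young replicate 1 was left out along with old replicate 3, an alternative chosen after the data were seen, *Cd22* had a log2 fold change of 1.21 (SE 0.46, edgeR without the filter, adjusted p = 0.0884) and *Blk* of 1.64 (SE 0.50, edgeR without the filter, adjusted p = 0.0213).

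Levels can be compared between genes only per length of exonic sequence. By the median of the young aortae, *Cd79b* was highest, with 7.42 normalized counts per kilobase, followed by *Cd79a* with 4.22, *Fcmr* with 2.23 and *Blk* with 1.86. *Cd22* (1.34), *Ms4a1* (0.994), *Mzb1* (0.821), *Pax5* (0.545) and *Cr2* (0.248) followed, and each of these neighbours differed by less than the spread between young mice. In old aortae *Blk* moved up, to a median of 5.36 per kilobase, behind *Cd79b* with 10.2 and ahead of *Cd79a* with 4.63.

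In pooled counts, the mix of the B cell genes differed between sets of libraries. *Blk* made up 8.01% of the counts of the 9 genes in young aortae (exact 95% binomial interval 5.25 to 11.6), 17.9% in the old aortae without replicate 3 (13.9 to 22.7) and 8.62% in old replicate 3 (6.41 to 11.3). *Cd22* made up 15.7% (11.9 to 20.2), 18.6% (14.4 to 23.4) and 25.1% (21.5 to 29.0) in the same 3 sets, and *Cd79a* 17.0% (13.0 to 21.6), 9.62% (6.58 to 13.4) and 11.7% (9.16 to 14.7). *Cd79b* was steadier, with 21.2%, 19.6% and 20.7%. These intervals cover counting error in pooled libraries and not the spread between mice. In single young aortae the share of *Blk* ran from 1 of 28 counts (replicate 5) to 5 of 23 (replicate 2). In single old aortae it ran from 47 of 545 (replicate 3) to 11 of 52 (replicate 1), so the groups overlapped by mouse for *Blk*. The share of *Cd79a* ran from 6 of 44 (replicate 4) to 6 of 28 (replicate 5) in young aortae. In old aortae it ran from 4 of 52 (replicate 1) to 64 of 545 (replicate 3), without overlap. The share of *Cd22* ran from 2 of 23 to 24 of 132 in young and from 16 of 122 to 137 of 545 in old aortae, with overlap. These shares rest on few counts and were not tested.

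Other gene lists moved with the same libraries. Old replicate 3 had the highest level of all 10 libraries for 8 of 10 T cell markers and 7 of 8 macrophage markers. The summed T cell list was 2.27 times, and the macrophage list 1.75 times, the median of the other 4 old aortae, less than the 7.61 times of the B cell genes. Over all 14614 tested genes this ratio had a median of 1.00 and was 2 or more for 195 genes (1.33%). Its endothelial list was the lowest of all libraries, at 8674 normalized counts against 9869 to 20227 in the other old aortae, and its share of mitochondrial counts was 5.19%, within the range of the others. The adipocyte list of old replicate 3 (5529 normalized counts) lay within the 3046 to 9183 of the other old aortae. In young replicate 1, the highest young library for the B cell genes, the adipocyte list was the highest of all, at 25522 normalized counts, 3.32 times the median of the other young aortae. The T cell list (98.1 normalized counts) and the macrophage list (9776) were also highest among the young aortae there. Among lymph node stroma and lymphatic markers, whose sum in old replicate 3 was 1.26 times the median of the other old aortae, *Ccl21a* had no count in any library, and *Glycam1*, *Madcam1* and *Chst4* had 0 to 2.99 normalized counts, with none in old replicate 3. The chemokine *Ccl19* was present in every library, at 38 to 77.8 normalized counts and 66.2 in old replicate 3. The lymphatic and macrophage receptor *Lyve1* was highest of all libraries there, at 1041. The lymphatic markers *Prox1* (20.5) and *Flt4* (197) were lowest of all libraries in old replicate 3. Smooth muscle markers summed to 699686 to 912519 normalized counts per library, which fits an arterial wall. The blood cell list (globins, *Alas2*, *S100a8* and *S100a9*) was highest in old replicate 2 (4656 normalized counts), young replicate 1 (3647) and young replicate 3 (3407). The B cell genes summed to 133, 135 and 84.7 there. Old replicate 5 came next (3049), with a B cell sum of 55.4, and old replicate 3 had 1967. The blood cell list was lowest in young replicate 4 (723) and old replicate 1 (821). The part of these other cell types in the B cell values was not tested.

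**Figure D3:**
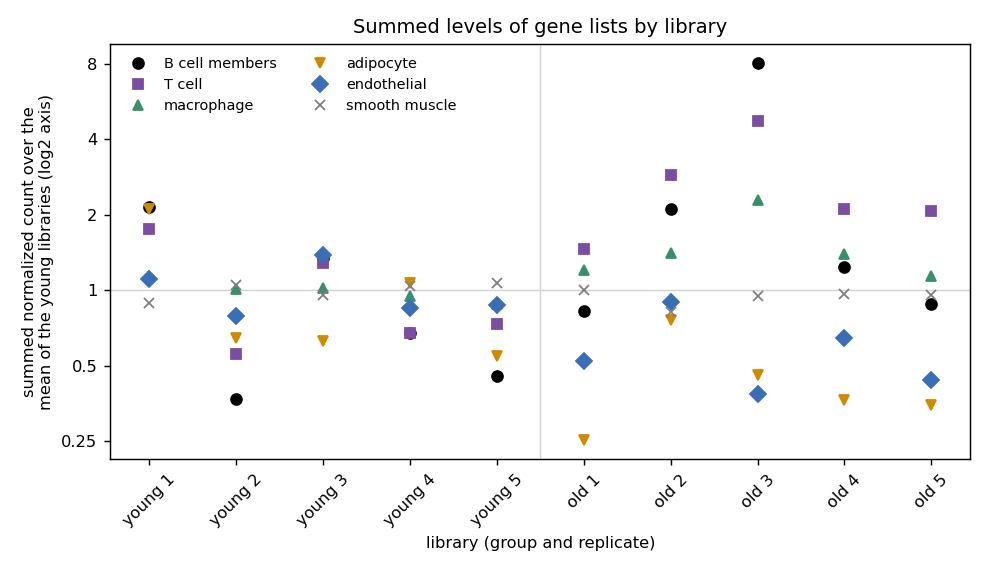
Summed normalized counts of the 9 B cell genes and of T cell, macrophage, adipocyte, endothelial and smooth muscle markers, each divided by its mean over the young libraries (vertical log2 axis), for the 10 libraries on the horizontal axis. The B cell sum peaks in old replicate 3, where T cell and macrophage markers are also highest. Among young aortae it is highest in young replicate 1, as are T cell and macrophage markers. Adipocyte markers are highest of all libraries in young replicate 1.

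T cell markers set the context for *Blk*. Of 10 T cell markers 4 were tested and 2 of these, *Cd4* and *Cd3g*, were called higher by edgeR, with or without old replicate 3, against 6.48% and 5.02% of all genes tested. *Cd3g* had 0 to 8.97 normalized counts in young and 11.0 to 38.2 in old aortae, and passed the low-count filter through the old group alone. The share called is therefore no test of the list. *Cd5* (log2 fold change 0.04) and *Lck* (0.91) were tested and not called. The T cell list summed to 31.2 to 98.1 normalized counts in the young group and 81.9 to 266 in the old group, and the old over young ratio was 2.66, or 2.13 without old replicate 3. Over the same libraries the ratio of *Blk* was 4.05 and 2.87, and that of *Cd79b* was 2.52 and 1.17. Whether the *Blk* counts come from T cells was not tested.

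Among 16 other surface genes of B cells, 10 were tested, 0 were called higher and 1 was called lower by edgeR (median log2 fold change 0.86, against 0.00 over all genes tested). Of the 10, 6 had an unadjusted p below 0.05, against 26.7% of all genes, and 1 of the 6 was the gene that was lower. DESeq2 called 5 of the 16 higher, against 7.24% of all genes. Old replicate 3 was the highest library for 15 of the 16. Without that library the median log2 fold change of the 10 genes tested was 0.56, with 0 called higher and 1 lower by edgeR. The gene called lower was *Cd24a*, a mucin-like surface protein found on many cell types, which fell from 559 ± 129 to 350.1 ± 32.5 normalized counts (log2 fold change -0.67, SE 0.15, edgeR adjusted p = 0.0117).

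Of 12 transcription factors of B and plasma cells, 8 were tested and 1 was called higher, against 6.48% of all genes. This was *Pou2f2*, which encodes the octamer-binding protein Oct-2, and it rose from 20.1 ± 10.1 to 45.9 ± 17.2 normalized counts (log2 fold change 1.20, SE 0.35, edgeR adjusted p = 0.0418). The call was lost in 7 of the 10 fits that left out 1 mouse, where the log2 fold change was 0.96 to 1.42, and it was 0.96 without old replicate 3. *Ebf1*, the EBF1 gene itself, also expressed in vascular stromal cells and named here after its values were seen, had 1819 ± 49.8 (young) and 1939.6 ± 165 (old) normalized counts and was not called (log2 fold change 0.10, SE 0.06, edgeR adjusted p = 0.324). It was not highest in old replicate 3.

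The list of signalling genes downstream of the B cell receptor held the most calls. Of 15 genes 14 were tested, and 6 were called higher and 0 lower by edgeR (against 6.48% called higher over all genes), with a median log2 fold change of 0.53. *Prkcb*, a protein kinase C, rose from 56.6 ± 12.0 to 117 ± 22.7 normalized counts (log2 fold change 1.05, SE 0.18, edgeR adjusted p = 0.00267). *Blnk*, the adaptor between Syk and its targets, rose from 28.6 ± 6.83 to 77.4 ± 30.8 (log2 fold change 1.44, SE 0.26, edgeR adjusted p = 0.00369). *Vav1*, an exchange factor for Rac, rose from 43.1 ± 8.69 to 92.2 ± 35.0 (log2 fold change 1.11, SE 0.25, edgeR adjusted p = 0.0124). The groups did not overlap in these 3 genes, as in 9.92% of all tested genes in either direction. *Blnk* had 65.0, 61.0, 132, 65.6 and 63.2 normalized counts in old replicates 1 to 5, and 18.4 to 36.2 in the young aortae. Its value in old replicate 3 was the highest of all libraries, as it was for 12 of the 15 genes of the list, and *Vav1* (149) and *Prkcb* (142) peaked there too. Without that library the log2 fold changes were 1.16 for *Blnk*, 0.86 for *Vav1* and 0.97 for *Prkcb*, and all 3 were still called by edgeR. *Pik3cd*, a leukocyte PI3-kinase subunit, rose by a log2 fold change of 0.54 (SE 0.12, edgeR adjusted p = 0.0128). *Btk* (log2 fold change 0.88) and *Fcgr2b* (0.53) were called as well. Their calls were lost in 6 and 7 of the 10 fits that left out 1 mouse, among them that without old replicate 3 (0.64 and 0.39), which left 4 of 14 called higher. Most of these genes are also expressed by macrophages, whose list had 3 of 8 markers called higher.

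**Figure D4:**
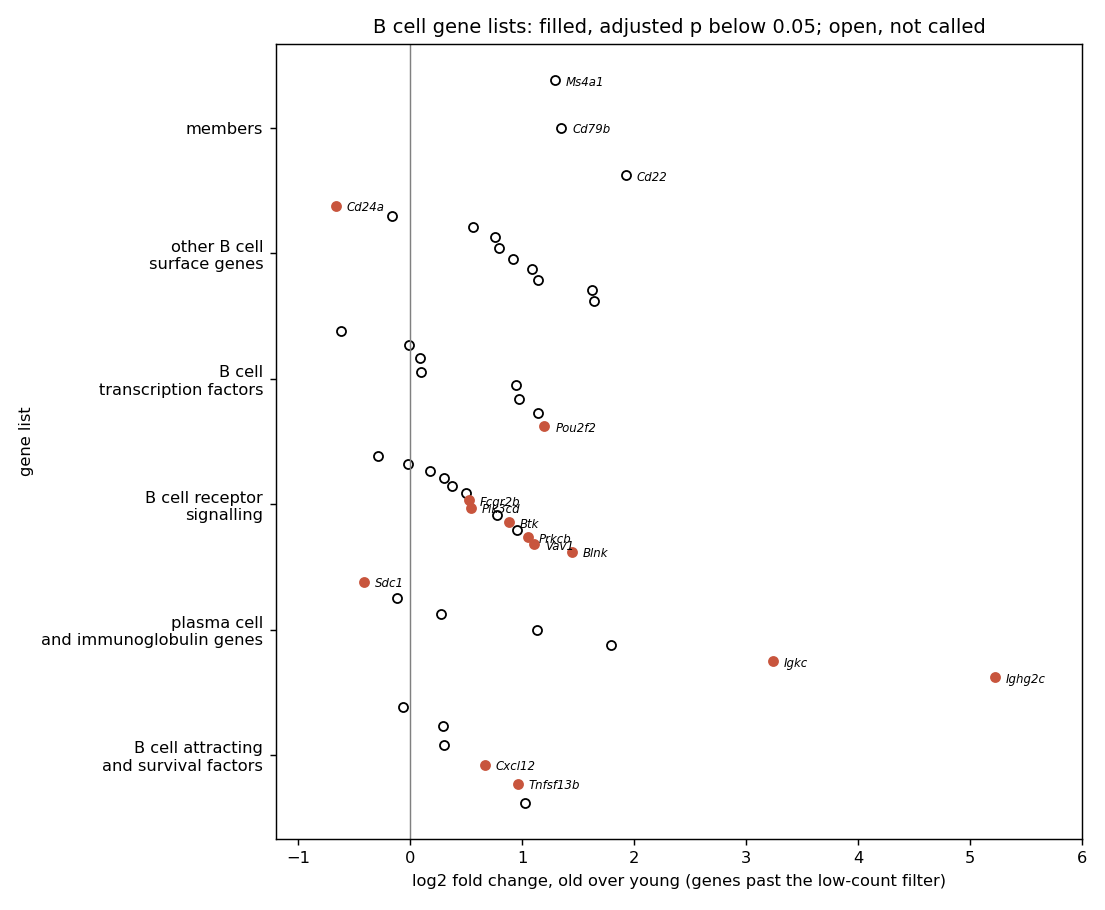
Log2 fold change, old over young (horizontal axis), of the genes past the low-count filter in 6 lists around B cells, with called genes filled and named (edgeR adjusted p below 0.05) and others open. The 3 tested B cell members lie between 1.29 and 1.93 without a call, and 6 called genes belong to the signalling list.

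Of 13 plasma cell and immunoglobulin genes, 7 were tested, 2 were called higher and 1 lower, against 6.48% and 4.99% of all genes. *Ighg2c*, an IgG2 constant region, summed to 8 counts over the young and 327 over the old libraries (log2 fold change 5.22, SE 0.79, edgeR adjusted p = 0.00186), with 19.99 normalized counts in the lowest old and 5.03 in the highest young aorta. *Ighg2c* passed the low-count filter through the old aortae alone, so the share of this list called higher is no test of the list. *Igkc*, the kappa light chain constant region, rose from 44.9 ± 32.8 to 421 ± 365 normalized counts (log2 fold change 3.24, SE 0.83, edgeR adjusted p = 0.0355). Its call was lost in 7 of the 10 fits that left out 1 mouse, with log2 fold changes of 2.84 to 3.65 and the lowest without old replicate 3. IgG constant regions are close in sequence, so that their counts may be split between genes. *Sdc1*, a plasma cell surface proteoglycan that other cells carry too, fell from 1344 ± 159 to 1002 ± 136 (log2 fold change -0.42, SE 0.10, edgeR adjusted p = 0.0209), a call lost without old replicate 5 (log2 fold change -0.41, edgeR adjusted p = 0.0509). *Jchain*, which joins IgM and IgA chains and was under the low-count filter, is named after its values were seen. Its normalized counts were 2.01 to 4.99 (young) and 6.81 to 70.8 (old), with its highest value in old replicate 2 and not in old replicate 3. *Ighg2c* did not overlap between the groups, as 9.92% of the genes past the filter did not. *Jchain*, which is not among those genes, did not overlap either, and no share for genes under the filter was computed. *Mzb1* stayed at 3.07 normalized counts or fewer in every library.

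Of 9 factors that attract B cells or keep them alive, 6 were tested, 2 were called higher and 0 lower (6.48% and 4.99% of all genes), and both calls held without old replicate 3. *Tnfsf13b*, which encodes the B cell survival factor BAFF, rose from 226 ± 35.1 to 437 ± 114 normalized counts (log2 fold change 0.96, SE 0.17, edgeR adjusted p = 0.00329). *Cxcl12*, a chemokine of stromal cells, rose from 4262 ± 357 to 6719 ± 910.0 (log2 fold change 0.66, SE 0.10, edgeR adjusted p = 0.000829). Neither was highest in old replicate 3.

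The genes whose pattern over the 10 libraries was most like the mean of the 9 B cell genes, after the group means were removed, were *Fgd2*, *Irf8*, *Akr1b10*, *H2-Ob* and *Lacc1*. Pearson's r of the log2 normalized counts plus 1 was 0.96 to 0.98 over 10 libraries and 0.93 to 0.98 over the 9 libraries without old replicate 3, given as a description since the genes were picked for it and share the libraries. *Irf8*, an interferon regulatory factor of myeloid and B cells, had 63.3 ± 19.6 (young) and 121 ± 69.2 (old) normalized counts, with 238 in old replicate 3. Without that library its old mean was 91.6 ± 26.4. *H2-Ob*, a chain of the MHC class II-like protein H2-O of B cells and dendritic cells, had 12.7 ± 7.98 and 38.9 ± 36.9, with 96.0 in old replicate 3. Without that library its old mean was 24.7 ± 21.5.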

How the data were processed

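Per the labels and the paper's methods, the authors filtered the reads with fastp 0.20.0, aligned them to the mouse genome (GRCm38, GENCODE M22) with STAR 2.7.0f and counted them per gene with featureCounts of Subread 1.6.4. The deposited values are raw counts, 1 column per mouse. The strand setting and the treatment of multiply aligned reads are not given in the sources used here. Positions, exonic lengths and shared 50-base windows were taken from GENCODE M21 on the same build.

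The age groups were tested against each other in edgeR 4.0.16 (R 4.3.3, limma 3.58.1, filterByExpr with a minimum count of 10, TMM scaling, robust quasi-likelihood F test, no covariate, Benjamini-Hochberg adjusted p below 0.05). Genes under the filter were tested in the same fit without it. Normalized counts use the size factors of DESeq2 1.42.0. Single genes were compared with exact permutation tests (scipy 1.17.1). The fits were tested on simulated data in which only genes past the low-count filter were changed. Recovery of changed genes under the filter, such as *Blk*, was therefore not tested. Total counts were 19640401 to 22886153 per library, and libraries of 1 group differed by 8.60 to 64.8 times counting error (chi-square divided by its degrees of freedom, in 20 pairs). The tests were repeated with DESeq2, with limma-voom (plain or quality-weighted), with 3 other scalings, 2 other filters, the replicate number as a covariate and the omission of each mouse.

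The 9 genes and all lists were chosen with earlier results of these data known. The text names the 9 genes, the called genes of each B cell list (at most 4, by smallest p) and the 5 genes most like the 9 in pattern. Further genes fall outside this rule, among them *Btk*, *Fcgr2b*, *Cd4*, *Cd3g*, *Ccl19* and the lymph node stroma and lymphatic markers. Of these further genes, only *Ebf1* and *Jchain* are marked in the text as named after their values were seen.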

Additional observations from a re-analysis of the deposited data

Results flagged for a closer look

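In groups of 5, the gap between the extreme library and its nearest neighbour was compared with the range of the group (Dixon's criterion). For a single group of normally distributed values, chance alone meets this criterion in about 1 of 20 cases. The groups here hold low counts, share the same libraries and include the sum of the 9 genes. Their number is therefore not set against that rate. Of 20 groups checked, 7 met the criterion, and each time the library was old replicate 3, at the high end. Its normalized counts were 59.6 for *Cd79a*, 105 for *Cd79b*, 128 for *Cd22*, 58.7 for *Pax5*, 31.7 for *Cr2* and 30.8 for *Fcmr*, and 508 for the sum of the 9 genes. *Ms4a1*, *Blk* and *Mzb1* did not meet it in either group, nor did any gene in the young group.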

How the results depend on the processing

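edgeR called 0 of the 9 genes, and 1 (*Blk*) without the low-count filter, with a mean count of at least 10 (1686 of 14657 genes called) and in DESeq2. With 1 mouse left out the number was 0 to 1. The log2 fold changes kept their sign in the alternatives run, except that without old replicate 3 *Cd79a* was at -0.47 and *Cr2* at -0.055, and without young replicate 1 and old replicate 3 *Cd79a* was at -0.11. The leave-one-out ranges were -0.47 to 1.14 for *Cd79a*, -0.055 to 2.10 for *Cr2*, 1.49 to 2.23 for *Blk* and 0.57 to 2.58 for *Cd22*. As ratios of means without 1 mouse, *Cd79a* ranged from 0.720 to 2.20, *Cr2* from 0.979 to 4.44, and *Cd22* from 1.48 to 6.00, the highest being without young replicate 1 (exact permutation, p = 0.0317). The summed level had a ratio of 1.27 to 3.69 without 1 mouse.

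Other surface genes called higher numbered 5 in DESeq2, 3 in limma-voom with quality weights, 1 with upper-quartile factors or library size alone, and 0 to 1 without 1 mouse. Transcription factors called higher numbered 3 in DESeq2 and in limma-voom with weights, 2 in limma-voom and without both mice, and 0 to 3 without 1 mouse. Plasma cell genes called higher numbered 1 in both limma-voom fits and without both mice, and 1 to 3 without 1 mouse, while those called lower numbered 0 without both mice and 0 to 1 without 1. Over all genes, DESeq2 called 2325 of 17134, and limma-voom called 1654 of 14614, or 2599 with weights. Upper-quartile factors gave 1692 calls, library size alone 1649, and the fit without both mice 2050 of 14590. Without 1 mouse there were 1132 to 2367 calls, against 1676 in edgeR with all mice and the low-count filter. The causes of these differences were not tested.

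With the replicate number as a block, edgeR called 1261 of 14614 genes. In that fit 0 of the 9 genes were called, and 2 other surface genes and 1 plasma cell gene were called higher. *Blk*, tested with the block but without the filter, had an adjusted p of 0.00341 (edgeR). The labels do not say that equal numbers mark paired mice. Deviations of same-numbered mice correlated at -0.29 to 0.13, and 2 of 5 young mice correlated best with the old mouse of their number.

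Counts of a few reads per library limit *Mzb1*, *Cr2* and *Fcmr* most.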
